A study of Mus musculus with 9 samples.

Results

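Markers of macrophages, monocytes and dendritic cells, 10 in number, are Lyz2, Cd68, Itgax, Itgam, Csf1r, Fcer1g, Tyrobp, Cst3, Aif1 and C1qa. Their messages were measured here in T cells sorted from mouse Peyer's patches (lymphoid follicles in the gut wall) by the surface proteins of T follicular helper (Tfh) cells. The 10 genes were taken by symbol from a table of 54146 genes, and each symbol named 1 row. The mutant group was Tgfbr1 WT/mut (1 mutant and 1 wild-type allele of the TGF-beta receptor gene Tgfbr1, 5 libraries, replicates 6 to 10), and its control was wild-type littermates (WT, 4 libraries, replicates 1, 3, 4 and 5). All libraries came from Peyer's patch cells sorted as CD4+CXCR5+PD1+, and each was made from 300 pg of RNA with a kit that does not mark the strand. The labels do not give the mutation, the age, the sex, the number of animals or the sorting day. Whether the libraries come from separate animals is not stated either, and the spread behind each p-value may therefore be technical.

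Macrophages and dendritic cells live in the dome and follicles of Peyer's patches, where they take up antigen and dead lymphocytes. Their surface receptor CSF1R keeps macrophages alive, their Fc and lectin receptors signal through small adaptor chains that carry an ITAM (a tyrosine motif that recruits the kinase SYK), and their lysosomes hold lysozyme, CD68 and cathepsins. A gate on CD4, CXCR5 and PD1 is meant to take T cells. In bulk RNA, fewer cells of a type and less RNA per cell cannot be told apart.

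The genes of the sorted proteins were abundant in every library. Cd4 lay between 804 and 947 CPM (counts scaled to a common library size, with TMM factors) in WT/mut and between 614 and 965 CPM in WT libraries, Cxcr5 between 1109 and 1267 CPM in WT/mut and between 1229 and 1379 CPM in WT, and Pdcd1, the gene of PD1, between 1634 and 1986 CPM in WT/mut and between 1496 and 2195 CPM in WT. Tgfbr1 itself averaged 73.5 ± 16.3 CPM in WT/mut (SD, n = 5) and 77.0 ± 20.2 CPM in WT (SD, n = 4), and counts per gene do not separate its alleles. Total expected counts per library were 29488851 to 37342778 in WT/mut and 32977949 to 43872732 in WT. WT/mut replicate 7 stood apart with 30143 genes that had a count, against 17904 to 20264 in the other libraries.

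Upstream sequence was found in the RefSeq table (GRCm38.p6) for 7 of the 10 genes. It is shown, as the 250 bases before the RefSeq gene start (for Lyz2, Aif1 and Fcer1g this start lies just inside the GENCODE gene), for these 3 markers, which were all highest in WT/mut replicate 6 and lowest in WT replicate 3, and for Lyz1, the neighbouring copy with which Lyz2 shares reads. Capitals mark GAGGAA on either strand (TTCCTC on the other), a core of sites bound by the myeloid ETS factor PU.1.
Lyz2, chr10:117282273-117282522, minus strand: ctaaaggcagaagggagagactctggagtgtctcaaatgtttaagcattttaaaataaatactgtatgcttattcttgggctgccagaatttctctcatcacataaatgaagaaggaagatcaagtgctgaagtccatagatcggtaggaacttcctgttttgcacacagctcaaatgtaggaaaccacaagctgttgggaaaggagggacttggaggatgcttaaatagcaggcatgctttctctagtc
Lyz1, chr10:117292869-117293118, minus strand: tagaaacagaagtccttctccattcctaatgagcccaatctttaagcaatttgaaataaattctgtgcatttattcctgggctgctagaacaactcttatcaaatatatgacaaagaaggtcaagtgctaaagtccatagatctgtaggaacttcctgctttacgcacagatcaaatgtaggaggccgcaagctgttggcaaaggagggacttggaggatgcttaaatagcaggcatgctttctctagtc
Aif1, chr17:35176053-35176302, minus strand: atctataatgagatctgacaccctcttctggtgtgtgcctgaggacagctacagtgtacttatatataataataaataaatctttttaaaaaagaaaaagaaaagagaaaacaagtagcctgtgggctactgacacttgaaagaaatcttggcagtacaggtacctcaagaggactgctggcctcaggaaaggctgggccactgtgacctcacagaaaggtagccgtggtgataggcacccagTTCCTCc
Fcer1g, chr1:171234350-171234599, minus strand: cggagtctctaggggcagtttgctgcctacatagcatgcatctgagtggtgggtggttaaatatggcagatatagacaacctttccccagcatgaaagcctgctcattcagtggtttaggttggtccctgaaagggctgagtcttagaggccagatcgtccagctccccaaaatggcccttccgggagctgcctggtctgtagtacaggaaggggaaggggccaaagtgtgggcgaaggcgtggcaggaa
The motif was present in 4 of the 7 upstream windows (Aif1, Cd68, Cst3 and Itgam, with 2 matches in Itgam), and in 23.3% of 32851 windows of the same length in the table. Among the windows shown, the letters were found in Aif1 and not in Lyz2, Lyz1 and Fcer1g. Spi1, which encodes PU.1, was at 5.816 ± 2.504 CPM in WT/mut, against 3.62 ± 2.12 CPM in WT, with overlapping ranges (named after its values were seen).

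The 10 markers spanned a wide range of levels. Per kilobase of exon, Cst3 (66.6 ± 6.5 CPM per kb in WT/mut and 78.9 ± 18.4 in WT) and Lyz2 (66.5 ± 36.1 in WT/mut and 51.7 ± 33.2 in WT) were near Cd247, the ITAM chain of the T cell receptor (66.7 ± 1.8 in WT/mut and 71.1 ± 5.1 in WT). This nearness holds per kilobase only. The Cd247 value divides by 5329 exon bases, of which 3007 overlap exons of Pou2f1 on the other strand. Before that division the WT/mut means were 355 CPM for Cd247, 84.4 CPM for Cst3 and 87.6 CPM for Lyz2. The WT means were 379, 99.8 and 68.1 CPM, respectively. Per kilobase, Cd68, C1qa, Tyrobp, Csf1r and Fcer1g came next, with group means between 3.19 and 15.6 CPM per kb. Aif1 had 2.99 ± 1.32 in WT/mut and 1.82 ± 1.08 in WT. Both CD11 integrin genes were lowest, with Itgax at 0.640 ± 0.651 CPM per kb in WT/mut and 0.218 ± 0.150 in WT, and Itgam at 0.340 ± 0.216 in WT/mut and 0.401 ± 0.152 in WT. In both groups the mean ± SD of neighbours in this order overlapped, except between Lyz2 and the next lower gene and between Aif1 and the integrin genes.

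**Figure D1:**
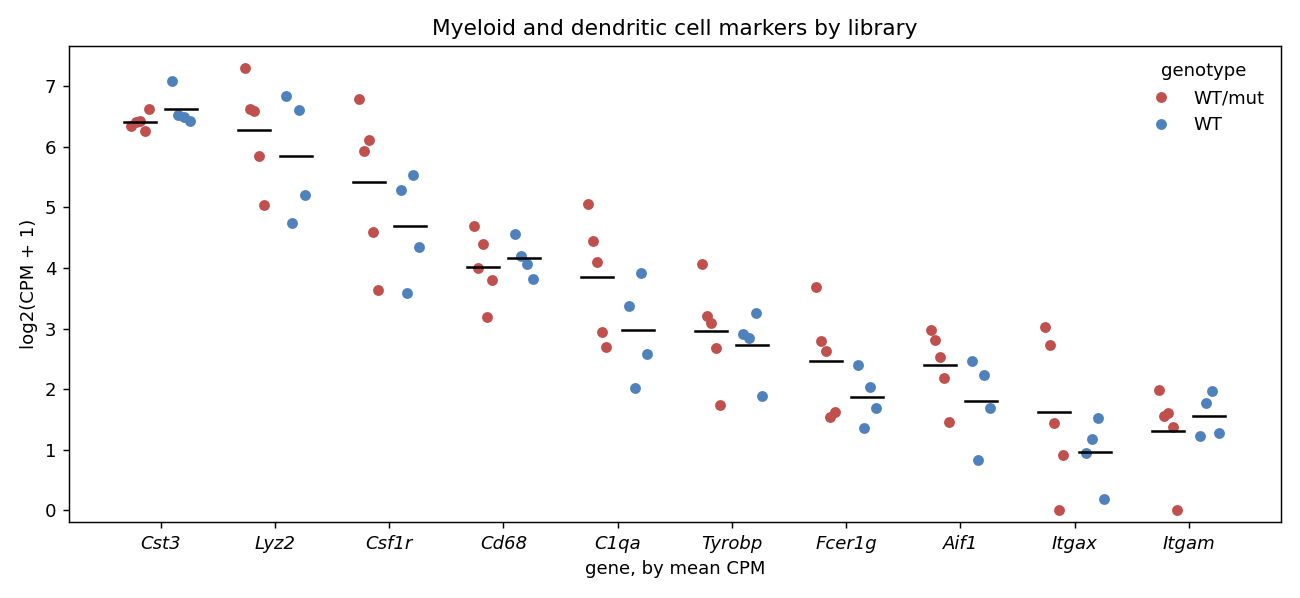
Level of each of the 10 markers, as log2(CPM + 1), in each library (points, 5 WT/mut in red to the left and 4 WT in blue to the right) with the group mean (bars), genes ordered by mean CPM. For every gene the WT/mut and WT points overlap, and Cst3 has the narrowest spread.

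All 10 genes passed the filter on low counts, and none was called different between the genotypes by edgeR's quasi-likelihood test (adjusted p between 0.465 and 0.933 over 15521 genes), where 0.122% of all tested genes were called, 0.0322% higher and 0.0902% lower in WT/mut. At an unadjusted p under 0.05 edgeR passed 0 of 10, against 12.2% of all tested genes, and DESeq2 1 of 10, against 14.2% of them, and DESeq2 called 0 of 10 after adjustment. The CPM ranges of WT/mut and WT overlapped for all 10, while 4.46% of tested genes had ranges that did not (2.06% higher and 2.4% lower in WT/mut). DESeq2 called 1.86% of all tested genes. The fold change was positive for 7 and negative for 3 markers, with a median log2 fold change of 0.56, against 0.0015 over all tested genes. Without WT/mut replicate 6 the median was 0.25.

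The macrophage receptor gene Csf1r differed 10.0-fold between its highest and lowest library. It was at 110.2, 60.2, 68.0, 23.2 and 11.4 CPM in WT/mut replicates 6 to 10, and at 38.2, 10.97, 45.5 and 19.2 CPM in WT replicates 1, 3, 4 and 5. The WT/mut libraries thus held both the highest level and one close to the lowest, and the log2 fold change of 0.94 ± 0.62 (SE) had an adjusted p of 0.539. Without WT/mut replicate 6 it was 0.52. Hmgxb3, on the other strand, shares 873 exon bases with Csf1r, which is 15.1% of the Csf1r exons, and its reads there cannot be told from those of Csf1r. Hmgxb3 ranged from 40.2 to 57.7 CPM in WT/mut and from 45.8 to 61.4 CPM in WT, and WT replicate 4 was its highest library. Its counts depend on the same uncertain split, and the part of its reads in the Csf1r levels was not tested.

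C1qa encodes a chain of C1q, the opener of the classical complement pathway that tissue macrophages make. It stood at 32.1, 20.8, 16.2, 6.65 and 5.50 CPM in WT/mut replicates 6 to 10, and at 9.37, 3.04, 14.2 and 4.98 CPM in WT replicates 1, 3, 4 and 5. Its log2 fold change of 1.05 ± 0.56 had the lowest p of the 10 (unadjusted 0.0892, adjusted p = 0.465), and was 0.65 without WT/mut replicate 6. C1qb and C1qc, the genes of the other chains beside C1qa on chromosome 4, were ordered much like it, with C1qb at 79.8 CPM in WT/mut replicate 6 and 8.93 CPM in replicate 10, and 36.8 CPM in WT replicate 1 against 9.13 CPM in WT replicate 3. Their log2 fold changes were 0.68 ± 0.62 and 0.60 ± 0.61.

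C1qa and Csf1r lie on different chromosomes, and their ratio within a library moved far less than either gene. C1qa was 0.238 to 0.481 times Csf1r in the 5 WT/mut libraries and 0.245 to 0.312 times in the 4 WT libraries, a 2.02-fold range over all 9, although C1qa itself varied 10.6-fold. Lyz2 was 1.4 to 2.79 times Csf1r in WT/mut and 1.87 to 2.98 times in WT, a 2.13-fold range. Wider ranges were found for C1qa over C1qb (0.254 to 0.617, 2.43-fold), C1qc over C1qb (0.587 to 1.31, 2.23-fold) and Tyrobp over Fcer1g (1.12 to 3.95, 3.53-fold). The ratio of Csf1r to Cst3, by contrast, ran from 0.118 in WT/mut replicate 10 to 1.38 in WT/mut replicate 6, an 11.7-fold range. These are descriptions of 9 libraries, and ratios between genes carry the difference in gene length.

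Lyz2, the lysozyme of macrophages, was at 157, 97.6, 95.1, 56.4 and 31.9 CPM in WT/mut replicates 6 to 10 and at 114, 25.9, 96.5 and 36.0 CPM in WT replicates 1, 3, 4 and 5. Levels near 100 CPM and levels near 30 CPM occurred in both genotypes, and the log2 fold change was 0.37 ± 0.52 (adjusted p = 0.797). This value moved with single libraries, between 0.052 without WT/mut replicate 6 and 0.74 without WT replicate 1. It was 0.58 without WT/mut replicate 10, and 0.095, 0.59 and 0.16 without WT replicates 3, 4 and 5. Lyz1, the lysozyme of Paneth cells in the gut lining, lies next to it on chromosome 10 (Lyz2 at 117277331 to 117282321 and Lyz1 at 117287797 to 117292868, GRCm38). Their transcripts are 92% identical over 1317 aligned columns and the upstream windows shown above 78.8% identical, and 15.4% of the 50-base words of Lyz2 occur also in Lyz1, so the split of reads is uncertain. Lyz1 had 11.1, 5.67, 4.37, 14.9 and 4.03 CPM in WT/mut and 3.26, 4.41, 5.03 and 3.83 CPM in WT (0.96 ± 0.41, adjusted p = 0.386), with WT/mut replicate 9 the highest. The part of Lyz1 reads in the Lyz2 levels was not tested.

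The lysosomal membrane protein gene Cd68 varied 3.07-fold. Its levels were 25.0, 15.1, 20.0, 8.15 and 12.9 CPM in WT/mut replicates 6 to 10, against 22.5, 17.4, 15.7 and 13.1 CPM in WT replicates 1, 3, 4 and 5. The value of -0.08 ± 0.29 (adjusted p = 0.929) gave no direction, since it was 0.10 without WT/mut replicate 9 and 0.08 without WT replicate 1.

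Cst3, the gene of the secreted cathepsin inhibitor cystatin C, did not follow the other markers. It was at 79.9, 83.7, 85.4, 75.4 and 97.3 CPM in WT/mut replicates 6 to 10 and at 134.5, 91.5, 88.7 and 84.8 CPM in WT replicates 1, 3, 4 and 5. WT replicate 1 was highest and WT/mut replicate 9 lowest, a 1.78-fold range, and the log2 fold change was -0.24 ± 0.14 (adjusted p = 0.501) and -0.06 without WT replicate 1. Its spread within groups (SD of 0.224 on the log2(CPM + 1) scale) was near the median of 0.196 for 2048 tested genes within 0.5 log2 units of its level. For Lyz2 and Csf1r the same SD was 0.939 and 1.13, against medians of 0.201 and 0.222 for genes of like level, which 99.7% and 99.6% of those genes fell below.

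The adaptor genes came next. Fcer1g, which encodes the Fc receptor gamma chain, was at 11.8, 5.95, 5.20, 1.92 and 2.08 CPM in WT/mut replicates 6 to 10 and at 4.27, 1.56, 3.08 and 2.24 CPM in WT replicates 1, 3, 4 and 5 (0.96 ± 0.54, adjusted p = 0.487). Tyrobp, which encodes the adaptor DAP12, was at 15.8, 8.19, 7.48, 5.41 and 2.33 CPM in WT/mut and at 6.52, 6.16, 8.61 and 2.68 CPM in WT (0.39 ± 0.49, adjusted p = 0.762). WT/mut replicate 6 was the highest library for both, and without it the log2 fold change was 0.45 for Fcer1g and -0.03 for Tyrobp. Tyrobp was at 0.63 without WT/mut replicate 10 or WT replicate 4 and at 0.15 without WT replicate 5. Of 16 receptor genes that use these adaptors, 5 passed the filter, 5 were positive and 0 were called by edgeR, DESeq2 or limma-voom (0 at an unadjusted p under 0.05 with edgeR), and in each of the 5 WT/mut replicate 6 was the highest library. They were Fcgr3 (21.1 CPM in that library), Clec4n (18.1 CPM), Fcgr4 (5.74 CPM), Clec5a (2.74 CPM) and Fcgr1. The fold changes of the Fc receptor genes Fcgr3 (0.67 ± 0.58) and Fcgr4 (0.97 ± 0.62) and of Clec4n, the gene of Dectin-2 (0.84 ± 0.73), did not pass (adjusted p between 0.527 and 0.643).

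**Figure D2:**
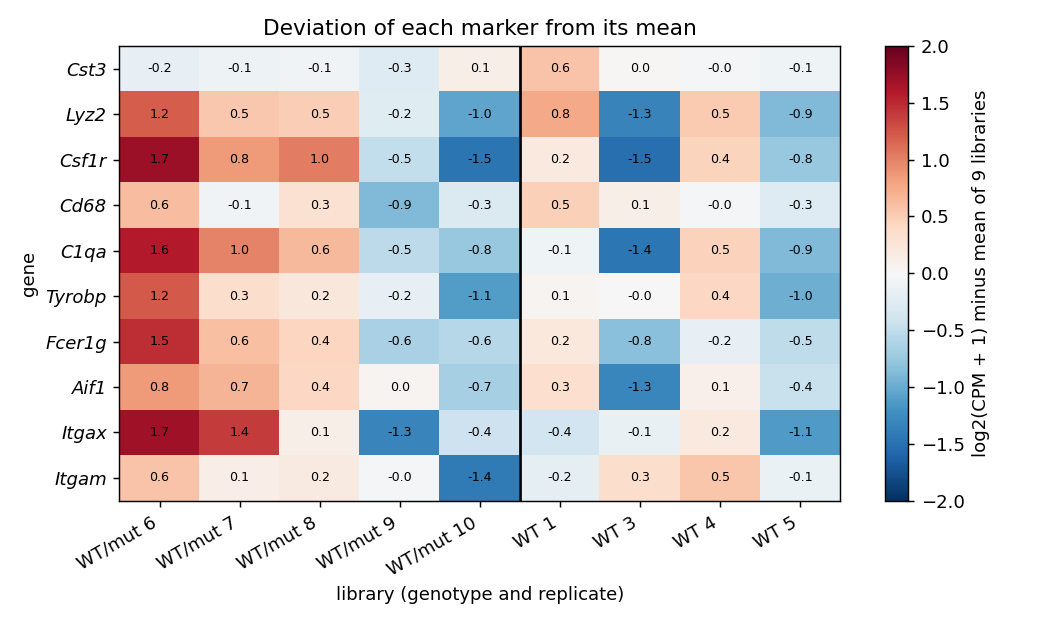
Deviation of log2(CPM + 1) from the mean of the 9 libraries for each marker (rows) in each library (columns; WT/mut left of the line, WT right of it). WT/mut replicate 6 is the highest library in 9 rows, WT/mut replicate 10 is among the lowest 3 libraries in 9 rows and WT replicate 5 in 8, and Cst3 changes little.

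Itgax, the gene of the dendritic cell integrin CD11c, had 7.12, 5.64, 1.72, 0 and 0.876 CPM in WT/mut replicates 6 to 10 and 0.918, 1.27, 1.86 and 0.138 CPM in WT replicates 1, 3, 4 and 5. Its fold change of 1.56 ± 1.13 was the largest of the 10 and had the largest error (adjusted p = 0.575), and it was 0.98 without WT/mut replicate 6 and 0.59 with limma-voom. Itgam, the gene of the macrophage integrin CD11b, had 2.98, 1.93, 2.04, 1.60 and 0 CPM in WT/mut and 1.33, 2.40, 2.91 and 1.43 CPM in WT (-0.24 ± 0.88, adjusted p = 0.933), and its value was -1.58 with limma-voom and between -0.53 and 0.09 without 1 library each. Itgax in WT/mut replicate 9 and Itgam in WT/mut replicate 10 were the only zeros among the 90 values of the 10 genes. The annotation has a gene, Gm49368, over 68.7% of the Itgam exons, which had no count in any library, and 9.61% of the 50-base words of Itgax occur also in Itgad, so the counts of both integrin genes are uncertain. Itgb2, the shared beta chain that T cells carry with CD11a, was at 931 ± 80 CPM in WT/mut, against 997 ± 65 CPM in WT (-0.10 ± 0.09, adjusted p = 0.672).

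Aif1, which encodes the macrophage calcium-binding protein IBA1, was at 6.85, 5.98, 4.799, 3.52 and 1.75 CPM in WT/mut replicates 6 to 10 and at 4.49, 0.766, 3.69 and 2.21 CPM in WT replicates 1, 3, 4 and 5. The highest 3 values were in WT/mut and the lowest in WT, but the groups overlapped and the log2 fold change was 0.72 ± 0.52 (adjusted p = 0.573). It was 0.40 without WT replicate 3 and 1.23 with limma-voom.

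In exact two-sided permutation tests of each gene over the libraries, on the log2(CPM + 1) scale, the p-values of the 10 genes lay between 0.175 (Cst3) and 0.683, where the smallest p such a test can give is 0.00794.

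**Figure D3:**
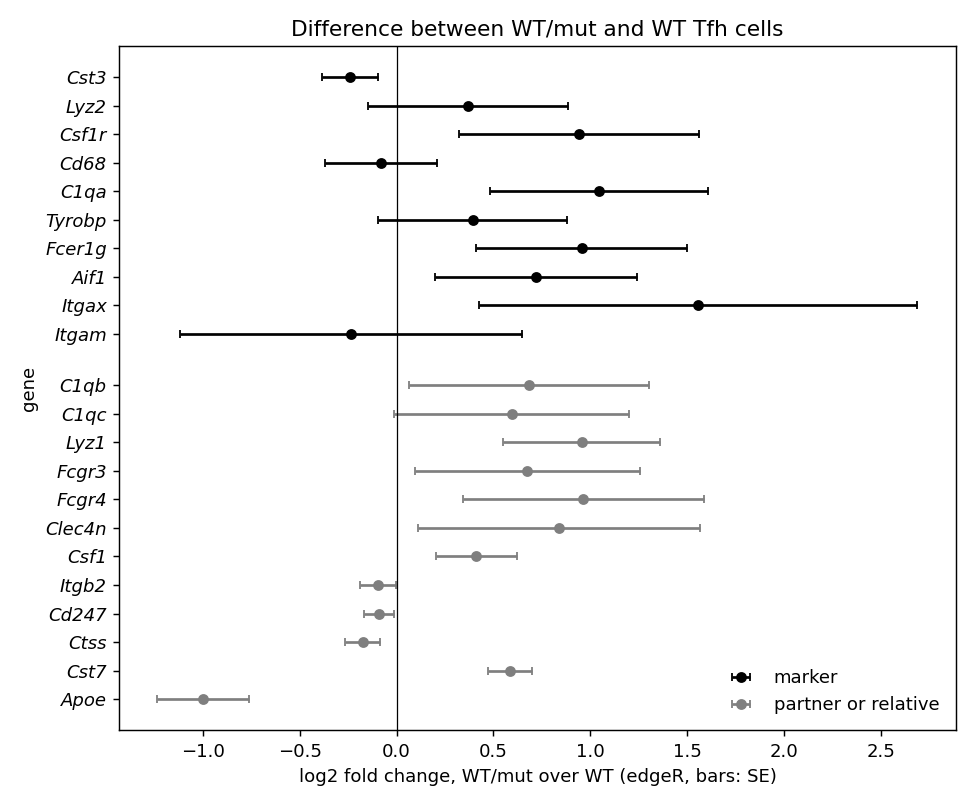
Log2 fold change, WT/mut over WT, with its SE for the 10 markers (black) and for 12 partners or relatives (grey). The errors of Itgax and Itgam are the widest among the markers, and none of the genes shown passed an adjusted p of 0.05 with edgeR.

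What the markers shared was the library in which they were highest. WT/mut replicate 6 was the highest of the 9 libraries for 9 of the 10 genes, the exception being Cst3, and it was the highest library for 6.62% of all tested genes. Over all 10 genes, mean ranks from the highest library were 1.7, 3.5, 3.6, 7.2 and 7.3 for WT/mut replicates 6 to 10. For WT replicates 1, 3, 4 and 5 they were 4.2, 6.6, 3.8 and 7.1. Over the 9 genes without Cst3, the mean rank of WT/mut replicate 6 was 1, which follows from leaving out Cst3. The mean ranks over these 9 were 3.11, 3.44, 7 and 7.89 for WT/mut replicates 7 to 10, against 4.56, 7, 3.78 and 7.22 for WT replicates 1, 3, 4 and 5. Summed over these 9 genes the level was 369, 221, 220.5, 107 and 68.8 CPM in WT/mut replicates 6 to 10 and 201.5, 69.4, 192 and 82.0 CPM in WT replicates 1, 3, 4 and 5. Without Cst3, each genotype therefore held libraries near 70 CPM and libraries near or above 190 CPM. With Cst3 the sums were 448.7, 305.1, 305.9, 182.2 and 166.1 CPM in WT/mut replicates 6 to 10. In WT replicates 1, 3, 4 and 5 they were 336, 160.9, 280.7 and 166.8 CPM.

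Other macrophage genes were also measured. Of 17 in the table, 13 were tested, 11 were positive, edgeR called 0 (2 at an unadjusted p under 0.05), DESeq2 2 and limma-voom 0, and the median log2 fold change was 0.60. WT/mut replicate 6 was highest for 10 of the 13. Siglec1, a sialic acid receptor of tissue macrophages, was counted 237 times in WT/mut and was at 0 in each WT library. Against a floor of 3 counts over the WT group, the pooled counts were at least 72.8-fold higher. This bound covers counting error only, not the spread between libraries. Siglec1 was at 1.83, 3.96, 0.636, 0.463 and 0.329 CPM in WT/mut replicates 6 to 10. Its highest library, WT/mut replicate 7, was the one with 30143 genes that had a count. edgeR did not call it (adjusted p = 0.0985) and DESeq2 did (adjusted p = 8.81e-06). Apoe, which encodes apolipoprotein E and was the most abundant of the 17, had a negative fold change, at 250.2, 205.5, 214.5, 147 and 221 CPM in WT/mut and 617, 365, 443 and 237 CPM in WT (-0.999 ± 0.236), with 1 WT library inside the WT/mut range. edgeR did not call it (adjusted p = 0.174) and DESeq2 did (adjusted p = 0.00255). Cx3cr1, a chemokine receptor gene of macrophages, was at 11.8 ± 7.3 CPM in WT/mut, against 18.3 ± 6.6 CPM in WT (-0.64 ± 0.44, adjusted p = 0.550).

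Genes shared by macrophages, monocytes and dendritic cells gave 14 positive and 5 negative of 19 tested and a median of 0.16. edgeR called 0 of them (3 at an unadjusted p under 0.05), DESeq2 2 and limma-voom 0. Cybb, the gene of the phagocyte oxidase subunit, was at 140.2, 100.2, 90.6, 93.4 and 102 CPM in WT/mut and 60.1, 75.5, 66.9 and 70.5 CPM in WT, with no overlap (0.63 ± 0.14, edgeR adjusted p = 0.138, DESeq2 adjusted p = 0.00402). Wdfy4, needed for cross-presentation by dendritic cells and used by B cells too, was at 13.2 ± 5.1 CPM in WT/mut, against 4.30 ± 2.61 CPM in WT (1.62 ± 0.47, edgeR adjusted p = 0.273, DESeq2 adjusted p = 0.0257). WT/mut replicate 9, which was among the lowest 3 libraries for 5 of the 10 markers, was the highest for Wdfy4 at 20.99 CPM. Ncf1, another oxidase subunit gene, was at 9.26 ± 2.71 CPM in WT/mut, against 4.96 ± 1.93 CPM in WT (0.90 ± 0.34, adjusted p = 0.340). Ctss, the gene of cathepsin S, was abundant and even, at 227 ± 17 CPM in WT/mut, against 257 ± 19 CPM in WT (-0.17 ± 0.09, adjusted p = 0.451).

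Of 16 conventional dendritic cell genes 11 were tested and 10 were positive (median 0.77). Neither edgeR, DESeq2 nor limma-voom called any of them, and 2 had an unadjusted p under 0.05 with edgeR. The genes of the list other than Irf8 averaged at most 5.84 CPM in either group. Clec9a, which marks cross-presenting dendritic cells, was at 0 in 7 of the 9 libraries and reached 3.02 CPM in WT/mut replicate 7 (named after its values were seen). That library was the one with 30143 genes that had a count. Mgl2, a lectin gene, was at 5.84 ± 5.22 CPM in WT/mut, against 1.90 ± 1.02 CPM in WT (1.62 ± 0.69, adjusted p = 0.386), with WT/mut replicate 6 the highest at 14.6 CPM. The chemokine receptor gene Xcr1 was at 1.90 ± 1.08 CPM in WT/mut, against 0.847 ± 0.560 CPM in WT (1.16 ± 0.65, adjusted p = 0.478). Irf8, a factor of dendritic and B cells, was at 46.3 ± 11.4 CPM in WT/mut, against 34.7 ± 5.4 CPM in WT (0.42 ± 0.18, adjusted p = 0.390), with WT/mut replicate 9 the highest.

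Of 9 plasmacytoid dendritic cell genes, 6 were tested, all 6 were positive, 4 had an unadjusted p under 0.05 with edgeR (5.69% of all tested genes were higher at that level). edgeR and limma-voom called 0 and DESeq2 1, Ccr9 (DESeq2 adjusted p = 0.0465). Ccr9 (0.65 ± 0.18), Runx2 (0.97 ± 0.28) and Tcf4 (0.76 ± 0.25) had edgeR adjusted p between 0.246 and 0.295, and these 3 genes are also used by lymphocytes. Siglech, which defines this cell type, was at 0 in 4 of 9 libraries and at most 0.569 CPM in WT/mut, against 2.34 CPM in WT (named after its values were seen). Of 12 monocyte and neutrophil genes, 6 were tested, with 3 positive and 3 negative. The calprotectin genes S100a8 and S100a9 reached at most 0.145 CPM in any library (named after their values were seen). Of 13 mast cell, basophil and eosinophil genes, 2 were tested. In this list and the monocyte and neutrophil list edgeR, DESeq2 and limma-voom called 0, with 0 at an unadjusted p under 0.05 with edgeR.

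Growth factors for these cells were measured in the same libraries. Csf1, the ligand of CSF1R, was at 58.4, 68.1, 52.1, 55.3 and 59.0 CPM in WT/mut and 43.3, 68.0, 30.2 and 34.8 CPM in WT (0.41 ± 0.21, adjusted p = 0.451), and the dendritic cell growth factor gene Flt3l at 30.8 ± 3.2 CPM in WT/mut, against 23.5 ± 4.5 CPM in WT (0.39 ± 0.15, adjusted p = 0.342). Csf2, the gene of the myeloid growth factor GM-CSF that T cells secrete, was at 0.481, 1.28, 0.583, 0.747 and 0.821 CPM in WT/mut and 2.25, 2.73, 3.32 and 2.51 CPM in WT, with no overlap (-1.78 ± 0.42, edgeR adjusted p = 0.174, DESeq2 adjusted p = 0.00803). In this list of 9 genes 6 were tested and 4 were positive, and edgeR called 0 (2 at an unadjusted p under 0.05), DESeq2 1, Csf2, and limma-voom 0. Among 12 relatives of the lysosomal markers, 11 were tested and 8 were negative, and edgeR called 0 (4 at an unadjusted p under 0.05), DESeq2 1 and limma-voom 0. Cst7, which encodes the cathepsin inhibitor cystatin F of lymphocytes and myeloid cells, was at 79.4, 81.01, 73.0, 85.1 and 81.05 CPM in WT/mut and 54.1, 61.3, 54.8 and 43.0 CPM in WT, with no overlap (0.59 ± 0.11, edgeR adjusted p = 0.0936, DESeq2 adjusted p = 0.000573). Unlike its relative Cst3, it was higher in each WT/mut than in each WT library.

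The ITAM chains of T cells and the kinases of the pathway gave 8 positive of 16 tested genes and a median of 0.0107, with 0 called by edgeR, DESeq2 or limma-voom and 4 at an unadjusted p under 0.05 with edgeR. Cd247 was at 355 ± 10 CPM in WT/mut, against 379 ± 27 CPM in WT (-0.09 ± 0.08, adjusted p = 0.641), and 56.4% of its exon bases overlap Pou2f1 on the other strand. Syk, the kinase used by myeloid and B cells, was at 19.4 ± 11.5 CPM in WT/mut, against 8.33 ± 5.87 CPM in WT (1.22 ± 0.52, adjusted p = 0.390), and Plcg2 at 19.0 ± 10.5 CPM in WT/mut, against 8.32 ± 4.11 CPM in WT (1.19 ± 0.40, adjusted p = 0.312), with WT/mut replicate 9 at 37.0 and 37.1 CPM the highest for both. Of 6 genes of the complement C1 list 4 were tested, and of 6 beta2 integrin genes 5 were tested, with 0 called in either by the 3 tools and 0 and 2 at an unadjusted p under 0.05 with edgeR. Class II MHC genes, which B cells and myeloid cells share, had 8 of 10 positive. edgeR and limma-voom called 0 (3 at an unadjusted p under 0.05 with edgeR), and DESeq2 called 1, the class II activator gene Ciita (1.12, DESeq2 adjusted p = 0.0438).

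Markers of other cells varied between libraries too. Over all tested genes, 12.2% had an unadjusted p under 0.05 with edgeR (5.69% higher and 6.46% lower in WT/mut). Ranges did not overlap for 4.46% (2.06% higher in WT/mut), and DESeq2 called 1.86%. B cell markers (all 12 tested positive, 0 called by edgeR, DESeq2 or limma-voom, 3 at an unadjusted p under 0.05 with edgeR) summed to 275 to 651 CPM in WT/mut, against 136 to 360.1 CPM in WT, and WT/mut replicate 9 was highest for 11 of the 12. In plasma cell markers, 9 of 11 tested were positive, edgeR and limma-voom called 0 (8 at an unadjusted p under 0.05 with edgeR), and DESeq2 called 3, among them Jchain (DESeq2 adjusted p = 6.54e-05) and Igha (0.000214). They summed to 661 to 1631 CPM in WT/mut, against 299 to 645 CPM in WT, with 1587, 1631 and 1389 CPM in WT/mut replicates 6, 7 and 8. These were also the highest 3 libraries in the summed markers without Cst3, but not with it. With Cst3, WT replicate 1 (336 CPM) came before WT/mut replicates 7 and 8 (305.1 and 305.9 CPM), and its plasma cell sum was 299 CPM. WT/mut replicate 10 had 661 CPM of plasma cell markers and the lowest marker sum without Cst3, 68.8 CPM. Epithelial markers (11 of 14 negative, 0 called by the 3 tools, 2 at an unadjusted p under 0.05 with edgeR) summed to 51.0 to 393 CPM in WT/mut, against 173 to 672 CPM in WT, highest in WT replicate 4 and at 89.2 CPM in WT/mut replicate 6. Of 6 tested red cell and platelet markers 6 were positive and 5 had ranges that did not overlap, edgeR and limma-voom called 0 (5 at an unadjusted p under 0.05 with edgeR), and DESeq2 called 4. They summed to 399.5 to 869.5 CPM in WT/mut, against 98.8 to 282.5 CPM in WT. The globin genes Hba-a1, Hba-a2 and Hbb-bs among them were all highest in WT/mut replicate 10 and lowest in WT replicate 5. They do not count as separate observations. The natural killer and innate lymphoid list had 1 called gene, Kit, which fell to 9.91 ± 3.89 CPM in WT/mut, against 42.1 ± 11.2 CPM in WT (edgeR adjusted p = 0.0334). The stromal and endothelial list had 1, Tek, which had 252 counts in WT/mut and 0 in WT (edgeR adjusted p = 0.0321). Its pooled counts were at least 77.4-fold higher against a floor of 3 counts, a bound for counting error only. The 10 T cell and Tfh genes summed to 7611 to 8104 CPM in WT/mut, against 8483 to 9232 CPM in WT, with no overlap. edgeR called 0 of them (5 at an unadjusted p under 0.05), limma-voom 1 and DESeq2 2, Icos (-0.52, DESeq2 adjusted p = 1.84e-05) and Il21 (-0.55, DESeq2 adjusted p = 0.00387), both lower in each WT/mut than in each WT library. The Il21 ranges nearly touched, at 531.1 CPM in WT/mut replicate 6 and 531.9 CPM in WT replicate 3. For Icos the closest values were 921 CPM in WT/mut replicate 9 and 1038 CPM in WT replicate 1. The part of these cells in the levels of the myeloid markers was not tested.

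**Figure D4:**
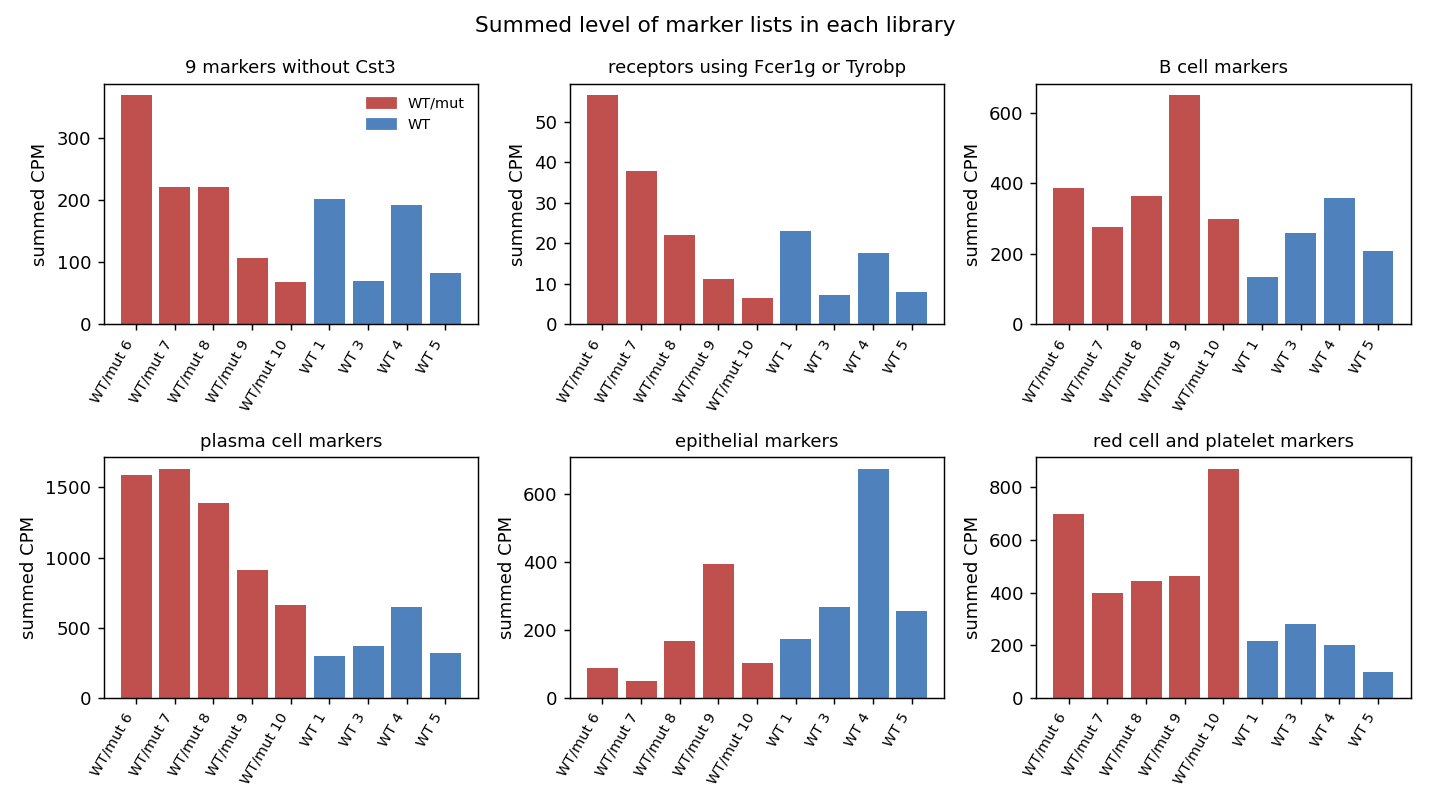
Summed CPM of marker lists in each library (bars from 0; WT/mut red and left, WT blue and right). The 9 markers without Cst3 and the receptors that use Fcer1g or Tyrobp are both highest in WT/mut replicate 6, B cell markers in WT/mut replicate 9, epithelial markers in WT replicate 4 and red cell markers in WT/mut replicate 10.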

How the data were processed

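RNA of sorted Peyer's patch Tfh cells was measured in 9 libraries. The authors deposited 1 table of expected counts per gene, which are estimates and need not be whole. The submitters' processing notes name cutadapt 2.10, STAR 2.5.3, RSEM 1.3.0, DESeq2 and the mm10 build, with no annotation release (not given in the sources used here). In each library 11.1% to 18.3% of values were not whole, and they were rounded before testing. Genes passing filterByExpr (minimum count 10, minimum total 15) were tested with edgeR 4.0.16 (R 4.3.3; robust quasi-likelihood F test, TMM, no covariate) on all 9 libraries, with Benjamini-Hochberg adjustment over 15521 genes and 0.05 as the threshold. Fold changes put WT/mut over WT on the log2 scale, and their SE was taken as their size over the root of F. CPM values are scaled by TMM and given as mean ± SD. DESeq2 1.42.0, limma 3.58.1 (voom), other scalings and filters, a covariate and the omission of each library were alternatives, and the script was tested on simulated data.

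Gene positions and exon lengths come from GENCODE M21 on GRCm38, in which 54079 of 54146 gene identifiers were found when versions were ignored. Reads of overlapping or near-identical genes can be split wrongly by the model behind expected counts. Intervals and floors cover counting error only. All 16 same-group library pairs differed by more than sampling noise (mean chi-square per gene at least 26.6).

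The markers and all lists were chosen with earlier results of these data known. The text names the 10 markers, Tgfbr1, in each list the called genes or else the 3 of lowest p and 2 of highest CPM as far as they bear on the markers, and Lyz1, C1qb, C1qc, Itgb2, Csf1, Ctss and Cd247 as partners. Lists overlap: Fcgr1, for instance, is both a macrophage and an adaptor receptor gene. Retnlg, a neutrophil gene of the lists, was not analysed here.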

Additional observations from a re-analysis of the deposited data

Results flagged for a closer look

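A library was set apart where its gap to the nearest other library of its group was large against the range of the group, and this was looked at in 68 sets of values, of which chance alone would mark about 1 in 20. It marked 6. Cst3 in WT replicate 1 stood at 134.5 CPM, above the other 3 WT libraries. The summed genes shared by macrophages, monocytes and dendritic cells stood at 600.9 CPM in WT/mut replicate 6. Summed monocyte and neutrophil genes were at 39.1 CPM in WT/mut replicate 9 and at 38.1 CPM in WT replicate 4, each far above its group. Most of both sums was 1 gene of the list, Plac8, at 32.3 CPM in WT/mut replicate 9 and 33.1 CPM in WT replicate 4. ITAM signalling genes summed to 8636 CPM in WT replicate 1, and stromal and endothelial markers to 229.7 CPM in WT/mut replicate 8. Of the stromal and endothelial sum, 220.2 CPM was Pecam1. WT/mut replicate 6 was not set apart in any single marker by this measure, although it was the highest library in 9 of 10.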

How the results depend on the processing

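No marker was called in any of the 18 alternatives. The median log2 fold change of the markers was between 0.25 and 0.89 without 1 library each, and the difference in their mean log2 summed CPM was 0.23, between 0.04 and 0.43 without 1 library each. The sign changed, with no call, for Tyrobp (-0.03 without WT/mut replicate 6), for Itgam (0.09 without WT/mut replicate 10 and 0.000559 without WT replicate 4) and for Cd68 (in 3 alternatives). Over all genes edgeR called 19, DESeq2 288, limma-voom 34 and edgeR with a covariate for detected genes 1; without 1 library each the count was 2 to 23. Without WT/mut replicates 7 and 9 together, a setting chosen after seeing the data, it was 1. At an unadjusted p under 0.05, 3 of 10 markers passed without WT/mut replicate 9 (9.46% of all tested genes), 3 without WT/mut replicate 10 (11.9%) and 1 without WT replicate 4 (16.7%), and the cause was not tested. With limma-voom the log2 fold change was -1.58 for Itgam, 0.59 for Itgax, 0.70 for Lyz2 and 1.23 for Aif1. It was 0.19 for Tyrobp, -0.145 for Cst3 and -0.0044 for Cd68. Each of these values was over 1.5 times from its edgeR value. At levels of a few CPM, as for Itgax and Itgam, SEs of 1.13 and 0.88 on the log2 scale limit what could be detected. No paired analysis was possible because the labels give no litter or other pairing of the libraries.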
